A study of Mus musculus with 6 samples.

Results

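Metabolite-sensing G protein-coupled receptors were examined in mouse medullary thymic epithelial cells (mTEC), as 9 genes of the 52636 in the count table. The genes were listed by their ligands and looked up by symbol. They encode the receptors for succinate (Sucnr1), for free fatty acids (Ffar1, Ffar2, Ffar3 and Ffar4), for lactate and related hydroxycarboxylic acids (Hcar1 and Hcar2) and for bile acids (Gpbar1), and a vomeronasal receptor known from intestinal tuft cells (Vmn2r26). RNA came from thymi of C57BL/6 mice at 6 weeks of age and was sequenced in 3 libraries of tuft-like and 3 of non-tuft-like mTEC. Both fractions were sorted as UEA+ MHCIIlo cells without CD80, Sca1 and CD63. The tuft-like fraction bound antibodies to CD117 and CD66a, and the non-tuft-like fraction bound neither. The labels name no treatment and no altered allele for either fraction. The sources used here do not say whether the libraries of a group came from separate mice, so p-values measure only the spread between these libraries, which may be technical.

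These receptors sit on the cell surface and couple changes in the concentration of small metabolites to heterotrimeric G proteins. In the intestine, tuft cells are known to sense succinate through Sucnr1 and to relay it through a taste-type cascade of gustducin, phospholipase C and the channel Trpm5. The short-chain fatty acid receptors are better known from immune and enteroendocrine cells, and the hydroxycarboxylic acid receptors from adipocytes, macrophages and keratinocytes.

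The libraries held 20097617 to 48369825 reads on genes. Reads in no annotated gene made up 34.4% to 52.5% of non-tuft-like reads, and 61.6%, 47.6% and 19.7% in tuft-like libraries 1, 2 and 3. All 10 tuft cell identity genes were called higher in tuft-like cells (median log2 fold change 4.34), which matched the labels. Of the thymic epithelial markers, Epcam and Krt8 were present in all 6 libraries, while Krt14 and Foxn1 were called lower in tuft-like cells.

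The promoter sequences of the receptor called between the groups and of the receptor with the highest mean level in tuft-like cells are shown to place the gene starts. They are RefSeq sequences of GRCm38.p6, each from 250 bases before to 50 bases after the gene's start, read 5′ to 3′ on the gene's strand. Capitals mark the octamer ATGCAAAT, the letters recognised by POU family transcription factors, searched on both strands.
Sucnr1, chr3:60081619-60081918, plus strand: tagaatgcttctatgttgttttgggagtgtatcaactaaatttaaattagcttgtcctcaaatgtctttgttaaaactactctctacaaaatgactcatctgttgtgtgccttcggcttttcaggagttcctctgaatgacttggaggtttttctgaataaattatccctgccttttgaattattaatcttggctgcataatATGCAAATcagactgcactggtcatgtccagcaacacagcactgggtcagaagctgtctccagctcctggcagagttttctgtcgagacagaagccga
Ffar2, the outermost of its listed starts, chr7:30823726-30824025, minus strand: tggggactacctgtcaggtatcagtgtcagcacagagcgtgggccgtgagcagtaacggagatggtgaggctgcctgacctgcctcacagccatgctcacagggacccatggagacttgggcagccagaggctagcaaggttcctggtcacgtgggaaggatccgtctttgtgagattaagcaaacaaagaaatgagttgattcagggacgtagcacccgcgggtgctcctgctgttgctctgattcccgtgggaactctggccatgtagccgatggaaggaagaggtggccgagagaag
The Sucnr1 promoter held the octamer on the plus strand, with its first base at position -48 from the gene's start. Among all 32851 promoters of this length, 1.74% held it on either strand. None of the other 7 receptors with a promoter sequence had it in this window. The Sucnr1 promoter had 3 CpG dinucleotides and 40.7% GC, below the medians of 7 and 52.7% over all promoters. The outermost Ffar2 promoter had 11 and 57.0%, while those at its other listed starts had 3 each and 50.7% to 54.0%. Pou2f3, the POU factor that specifies tuft cells, had a mean of 525 CPM in tuft-like against 118 CPM in non-tuft-like libraries. Of the genes called higher in tuft-like cells that had a promoter sequence, 16 of 281 (5.69%), Sucnr1 among them, held the octamer. Of the genes called lower it was 6 of 229 (2.62%), and of all genes tested 332 of 17624 (1.88%). These counts were added after the match in Sucnr1 had been seen and were not tested. Binding of Pou2f3 to this octamer, and any effect of it on Sucnr1, were not tested either.

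Sucnr1 was the only receptor called between the fractions, a call that depended on the libraries included. In CPM, gene counts scaled to a common library size with TMM factors, it stood at 0, 0.213 and 0.127 in non-tuft-like libraries 1, 2 and 3, and at 12.1, 7.63 and 17.1 in tuft-like libraries 1, 2 and 3. The lowest tuft-like library was far above the highest non-tuft-like one. The gene lies at chr3:60081869-60087566 on the plus strand of mm10, with 1640 exonic bases in 3 exon blocks, and no stretch of 50 bases of its transcripts occurred in another gene's transcripts. In all, 14 reads fell on it in the 3 non-tuft-like libraries and 1172 in the 3 tuft-like ones. The library at 0 allows up to 0.0947 CPM, taking 3 reads as the limit, which covers counting error only.

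The mean of Sucnr1 was 0.113 ± 0.107 CPM (SD, n = 3) in non-tuft-like and 12.3 ± 4.72 CPM (SD, n = 3) in tuft-like mTEC, a 108-fold ratio of means. Its log2 fold change was 6.68 (SE 1.32, 95% interval 3.75 to 9.61), with an adjusted p of 0.0287 by edgeR's quasi-likelihood test with Benjamini-Hochberg adjustment over all genes tested. Leaving out a library ended the call in 4 of 6 cases. Without non-tuft-like library 2 or 3, or without tuft-like library 1 or 2, the adjusted p by the same edgeR test rose to 0.0575, 0.0883, 0.0620 and 0.0610, while the log2 fold change stayed between 6.70 and 7.51. It was still called without non-tuft-like library 1 (edgeR adjusted p = 0.0344) and without tuft-like library 3 (edgeR adjusted p = 0.0443). An exact two-sided permutation test on log2(CPM + 1) gave p = 0.1, the smallest that 3 against 3 libraries allow. In bulk RNA, more cells with the transcript and more transcript per cell cannot be told apart.

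Sucnr1 is also known from macrophages, so myeloid genes were read beside it. The 10 myeloid markers summed to 461, 397 and 332 CPM in non-tuft-like libraries 1, 2 and 3 and to 190, 159 and 246 CPM in tuft-like libraries 1, 2 and 3. The sum was thus lower in the tuft-like group, and within that group it had the same order as Sucnr1. In tuft-like library 3, where Sucnr1 was highest, 4 of the 10 markers (Lyz2, Csf1r, Cd14 and S100a9) were at the highest level of the group and 5 at the lowest, among them Itgam, Fcgr3 and Csf3r at 0 and the macrophage gene Adgre1 at 0.0276 CPM. The part of myeloid cells in the Sucnr1 values was not tested.

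**Figure D1:**
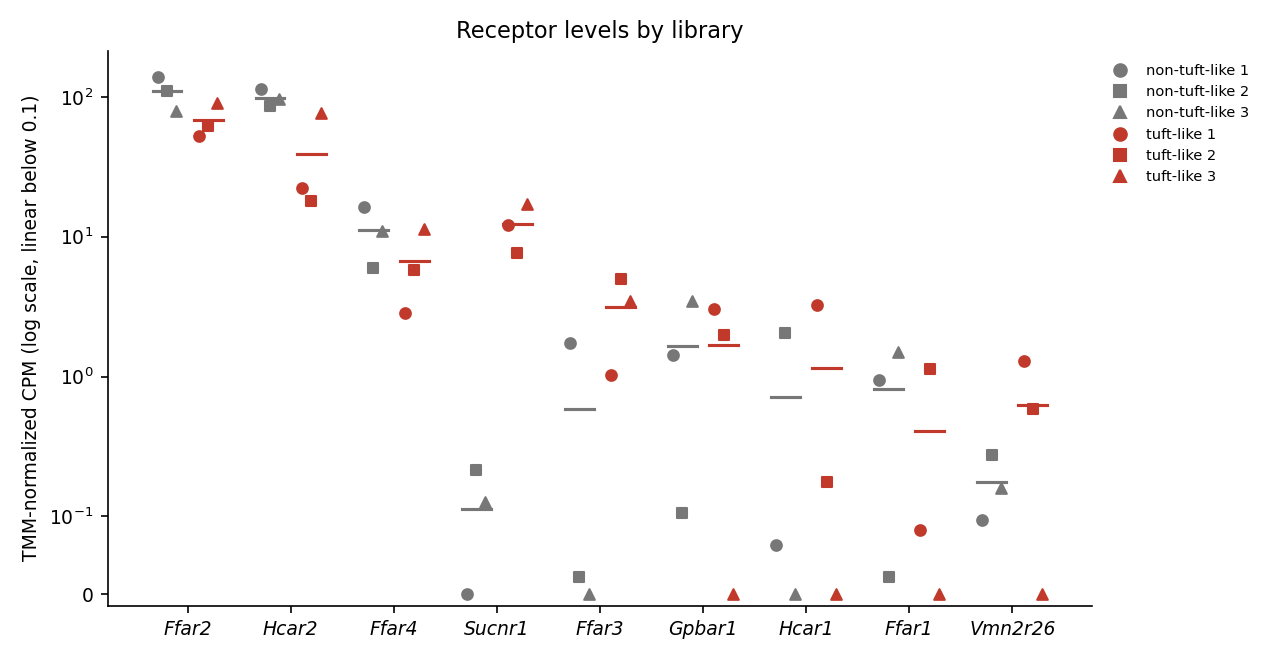
TMM-normalized CPM of the 9 receptor genes in each of the 6 libraries (vertical axis logarithmic, linear below 0.1), with non-tuft-like libraries in grey, tuft-like in red, symbols for library numbers and bars for group means. Sucnr1 sits at 7.63 to 17.1 CPM in tuft-like libraries and at 0 to 0.213 CPM in non-tuft-like ones, while the other receptors overlap or, for Hcar2, run the other way.

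Of the 9 receptors, 7 passed the filter on low counts. Of these, 1 was called higher in tuft-like cells and 0 lower, beside 1.16% of the 32496 genes tested called higher and 2.11% called in either direction. With an unadjusted p under 0.05 there were 2, Sucnr1 and Hcar2. Sucnr1 and Hcar2 were also the receptors whose groups did not overlap, against 16% of all genes tested. The median log2 fold change of the 7 receptors was -0.69, against 0.02 over all genes tested.

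Hcar2 is a hydroxycarboxylic acid receptor that also binds butyrate and niacin. In non-tuft-like libraries 1, 2 and 3 it was at 113, 86.2 and 97.4 CPM. In tuft-like libraries 1, 2 and 3 it was at 22.2, 17.9 and 76.1 CPM. The groups did not overlap, but tuft-like library 3 lay near the non-tuft-like level. Means were 98.9 ± 13.6 and 38.8 ± 32.4 CPM (SD, n = 3 each), and the log2 fold change of -1.35 (SE 0.50, 95% interval -2.46 to -0.24) did not pass the test (edgeR adjusted p = 0.346). Without tuft-like library 3, the log2 fold change was -2.34 and the edgeR adjusted p 0.00426. Hcar2 (chr5:123863570-123865499, minus strand) has 1 exon of 1930 bases.

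Some other cell types' markers were, like Hcar2, lower in the tuft-like group. Keratinocyte markers summed to 3232, 5134 and 5370 CPM in non-tuft-like libraries and to 136, 478 and 1310 CPM in tuft-like libraries 1, 2 and 3, and 4 of the 8 (Ivl, Dmkn, Flg and Sbsn) were called lower. Tuft-like library 3 was thus the highest of its group in keratinocyte markers as well as in Hcar2. The remaining libraries of both groups did not keep the order of Hcar2. Tuft cell identity genes (8217, 11532 and 14137 CPM in tuft-like libraries 1, 2 and 3) were highest in library 3 too. So were thymic epithelial markers (3062, 4637 and 7148 CPM) and enteroendocrine and islet markers, while adipocyte and thymocyte sums were lowest there. The myeloid sum, given above, was also lower in the tuft-like group and highest there in library 3, but single myeloid markers did not all follow Hcar2 in that library. Of the 10, Cd68 was the 1 called lower, with a log2 fold change of -3.30. Library 3 also had the smallest share of reads in no gene. The part of these cells and of library quality in the Hcar2 values was not tested.

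Hcar1, the lactate receptor, lies 11236 bases from Hcar2 and was much sparser. Its 6 libraries held 2, 97 and 0 reads in the non-tuft-like group and 79, 6 and 0 in the tuft-like group, each total coming mainly from 1 library. It failed the low-count filter, and the exact two-sided permutation test gave p = 0.7.

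Ffar2, the receptor for acetate and propionate, had the highest mean level in tuft-like cells, with Hcar2 above it per kb of exon in tuft-like library 3. Ffar2 measured 140, 110 and 79.7 CPM in non-tuft-like libraries and 52.2, 62.1 and 90.2 CPM in tuft-like libraries. The groups overlapped, tuft-like library 3 lying above non-tuft-like library 3. Means were 110 ± 30.0 and 68.2 ± 19.7 CPM (SD, n = 3 each), with a log2 fold change of -0.69 (SE 0.32, 95% interval -1.40 to 0.02, edgeR adjusted p = 0.599), which did not pass. The gene, at chr7:30818348-30823775 on the minus strand, has 5 exon blocks and 2790 exonic bases.

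Ffar4, a receptor for long-chain fatty acids, was at 16.4, 5.94 and 10.9 CPM in the non-tuft-like group and at 2.85, 5.76 and 11.4 CPM in the tuft-like group. The groups overlapped through tuft-like library 3, while tuft-like libraries 1 and 2 lay below the lowest non-tuft-like library. Its log2 fold change was -0.74 (95% interval -2.42 to 0.95), with an edgeR adjusted p near 1.

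Ffar3 and Ffar1 lie 1211 bases apart on the minus strand of chromosome 7, with Ffar2 30554 bases from Ffar3. Ffar3, a second short-chain fatty acid receptor, had 55, 1 and 0 reads in non-tuft-like libraries and 25, 170 and 125 in tuft-like libraries. Tuft-like libraries 2 and 3 stood above the rest, but the groups overlapped, and the log2 fold change of 2.43 (95% interval -1.96 to 6.81) did not pass. Ffar1, a receptor for medium- and long-chain fatty acids, had 30, 1 and 47 reads against 2, 39 and 0 and a 95% interval of its log2 fold change of -5.94 to 3.94. Both intervals span large changes in either direction, so no difference could be detected against the spread between libraries.

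Gpbar1, the membrane receptor for bile acids, had 45, 5 and 109 reads in non-tuft-like libraries and 74, 68 and 0 in tuft-like libraries. Its log2 fold change of 0.02 (95% interval -4.22 to 4.26) gave no direction, and the sign changed with the fit. Vmn2r26 had 3, 13 and 5 reads against 31, 20 and 0 and failed the filter. Of the 50-base stretches of Vmn2r26 transcripts, 18% also occurred in other genes and 14% in Vmn2r25. Reads without a unique alignment were counted in a row of no gene, so reads from shared stretches can be missing from Vmn2r26. Vmn2r25, named after its values were seen, was at 0.221, 0.575 and 2.80 CPM in non-tuft-like libraries and at 3.55, 10.6 and 4.06 CPM in tuft-like libraries, without overlap, and its log2 fold change of 2.34 did not pass (edgeR adjusted p = 0.767). Of 122 Vmn2r genes, 82 were tested and 0 were called by edgeR, also 0 at an unadjusted p under 0.05.

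**Figure D2:**
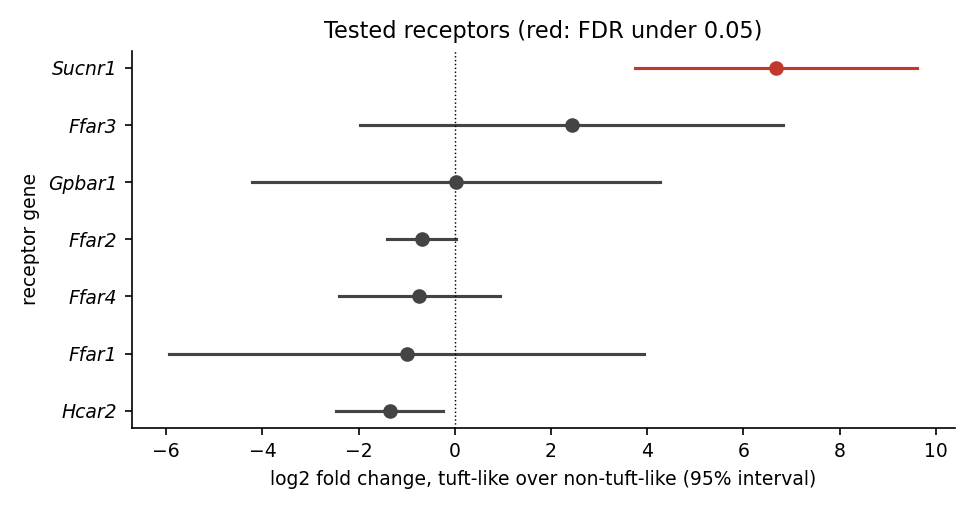
Log2 fold change (tuft-like over non-tuft-like, horizontal axis) of the 7 tested receptors, with 95% intervals, from edgeR; red marks an adjusted p under 0.05. The interval of Sucnr1, 3.75 to 9.61, and that of Hcar2, -2.46 to -0.24, lie clear of 0; the other 5 include it.

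Levels of different receptors were compared per kilobase of exon. In non-tuft-like libraries Hcar2 had 51.3 and Ffar2 39.4 CPM per kb, which overlapped, followed by Ffar4 at 7.92, which lay below both. Gpbar1, Ffar3, Hcar1, Ffar1, Sucnr1 and Vmn2r26 followed, each overlapping its neighbour. In tuft-like libraries the order of means was Ffar2 at 24.4, Hcar2 at 20.1, Sucnr1 at 7.48, Ffar4 at 4.75, Ffar3 at 1.70 and Gpbar1 at 1.56 CPM per kb. Hcar1, Ffar1 and Vmn2r26 were below. The ranges of all neighbours overlapped across libraries. Within each tuft-like library, however, Hcar2 was above Sucnr1 and Sucnr1 above Ffar4. In libraries 1, 2 and 3 Sucnr1 was at 7.38, 4.65 and 10.4 CPM per kb and Ffar4 at 2.04, 4.11 and 8.10. By group mean, Sucnr1 stood at rank 8 of 9 in non-tuft-like cells and at rank 3 in tuft-like cells. Its rank of 8 rests on 0 to 10 reads per library, and its place differed between the non-tuft-like libraries. In tuft-like cells it held rank 3 in each library. Ffar2 and Hcar2 together made up 91.6% to 95.8% of the summed CPM of the 9 receptors in non-tuft-like and 75.9% to 83.9% in tuft-like libraries, and Sucnr1 made up at most 0.104% and 7.46% to 12.3%.

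Olfactory receptor genes, members of the same receptor superfamily that serve in olfactory neurons, gave a reference for low and scattered reads. mTEC are known to transcribe many tissue-restricted genes at a low level, so this reference may include true transcripts. Their 99th percentile over 1107 genes was 1.35 to 2.79 CPM per kb, depending on the library. Ffar2 and Hcar2 were above it in all 6 libraries, Ffar4 in 5, Sucnr1 in the 3 tuft-like libraries and none of the others, and Ffar3 in 2 tuft-like libraries. Gpbar1 was above it in 1 library of each group, and Ffar1, Hcar1 and Vmn2r26 in none. The median olfactory gene was at 0.438 CPM per kb in tuft-like library 1, the one with the largest share of reads in no gene, and at 0 in tuft-like library 3, the one with the smallest. Ffar1, Hcar1, Gpbar1 and Vmn2r26 were also all at 0 in tuft-like library 3. The part of reads outside genes in these low values was not tested.

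**Figure D3:**
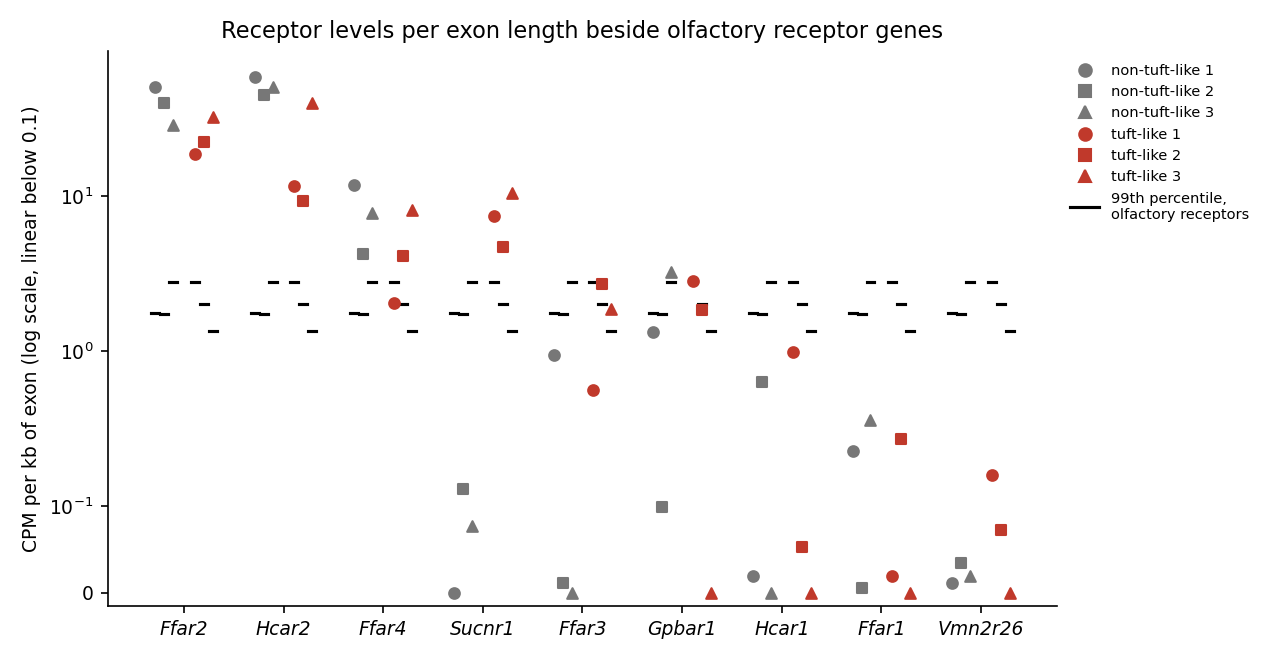
CPM per kb of exon of the 9 receptor genes by library (vertical axis logarithmic, linear below 0.1), with a black bar at the 99th percentile of 1107 olfactory receptor genes in the same library. Sucnr1 lies above its bar in the 3 tuft-like libraries and below it in the 3 non-tuft-like ones; Ffar2 and Hcar2 lie above it in all 6.

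Genes downstream of the receptors were read from the same fit, in which 1.16% of all genes tested were called higher and 2.11% in either direction. Of the taste-type cascade, 5 of 6 genes were called higher, and the list's median log2 fold change was 3.86. These were Gnat3 (gustducin, 4.06), Gnb3 (3.58), Gng13 (4.15), Plcb2 (3.67) and Trpm5 (4.31), while Itpr3 had 0.51 and did not pass. Trpm5 also belongs to the tuft cell identity genes, so these lists are not independent. Of 13 other nutrient and metabolite receptors, 12 were tested and 2 were called higher: Tas1r1 at 2.22 and Tas1r3 at 3.11, the pair that forms the umami receptor. Among 13 G protein alpha subunits the 1 called was Gna14, which rose by 2.20, and among 7 receptor kinases and arrestins Grk6, by 2.54. None of 9 adenylyl cyclases passed the edgeR test, with 2 at an unadjusted p under 0.05.

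Genes that make, move or sense the ligands inside the cell were read beside the 2.11% of all genes tested that were called in either direction. Of 11 genes of succinate production and transport, 0 were called by edgeR and 1 had an unadjusted p under 0.05, at a list median of 0.16 on the log2 scale. Slc5a8, a transporter of short-chain fatty acids and lactate, fell by 2.36 on the log2 scale, the 1 call among 7 genes of lactate and short-chain acid handling. Vdr, a nuclear receptor for vitamin D and some bile acids, was the 1 call of 8 bile acid genes and fell by 1.88. Fabp5, a fatty acid binding protein of epithelial cells, was the 1 call of 11 fatty acid genes and fell by 2.19. The fatty acid transporter Cd36 measured 122, 21.5 and 18.9 CPM in tuft-like and 4.04 to 7.69 CPM in non-tuft-like libraries and stood just outside the threshold (log2 fold change 3.28, edgeR adjusted p = 0.0501).

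**Figure D4:**
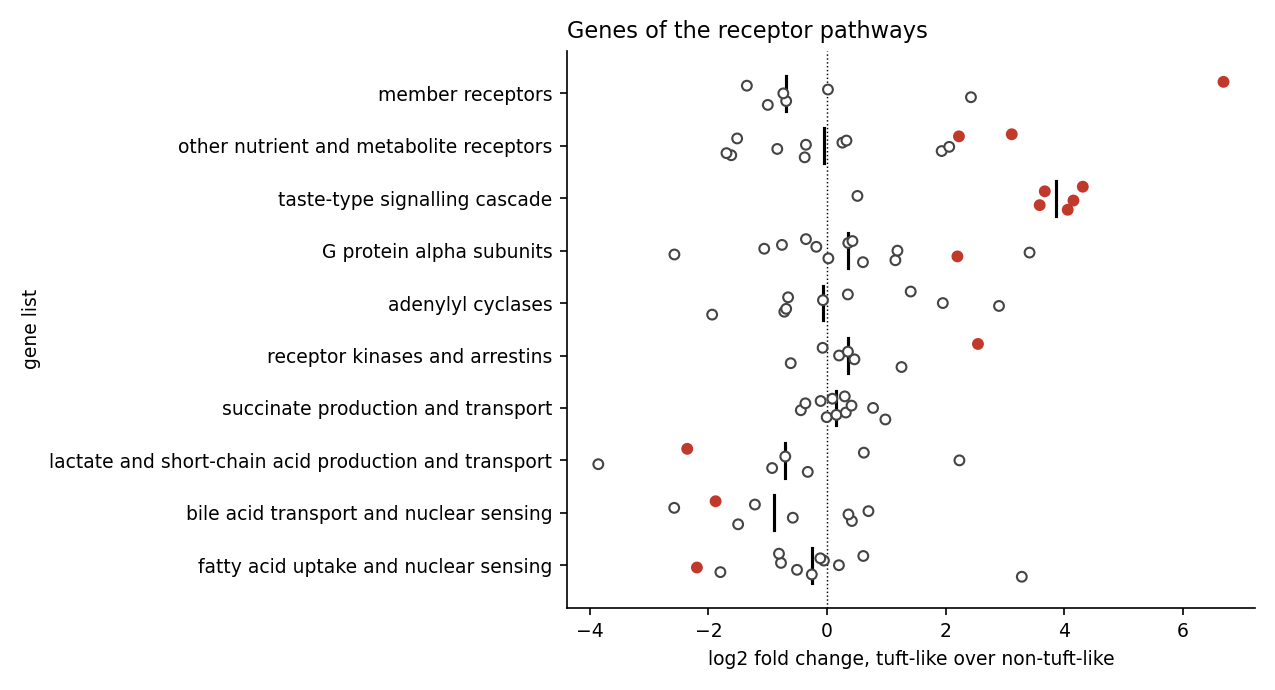
Log2 fold changes (tuft-like over non-tuft-like, horizontal axis) of the receptors and of genes from 9 related lists, each point a tested gene, red for an edgeR adjusted p under 0.05, bars for medians. The taste-type cascade centres at 3.86, and the succinate list at 0.16 with no red point.

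The genes whose pattern over the 6 libraries was most like that of Sucnr1 were Snhg18, a non-coding RNA host gene (root mean square difference of centred log2(CPM + 1) of 0.27), Gng13 (0.35) and the sialic acid receptor gene Cd33 (0.36), among 17505 genes compared. That they were higher in tuft-like cells follows from their choice by likeness to Sucnr1. All were called, with log2 fold changes of 4.51, 4.15 and 3.39, against 6.68 for Sucnr1.

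The adipocyte markers, relevant to Hcar1 and Hcar2, were low in every library and summed to 5.40 to 21.4 CPM in the non-tuft-like group and to 0 to 9.59 CPM in the tuft-like group, with no call by edgeR among 5 genes and none at an unadjusted p under 0.05. The enteroendocrine and islet markers, relevant to Ffar1 and Ffar2, summed to 1884 to 3694 CPM in the non-tuft-like group and to 1031 to 1650 CPM in the tuft-like group, mainly through Chga and Chgb, and 0 of 9 were called by edgeR, with 3 at an unadjusted p under 0.05. Their part in the receptor values was not tested.

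**Figure D5:**
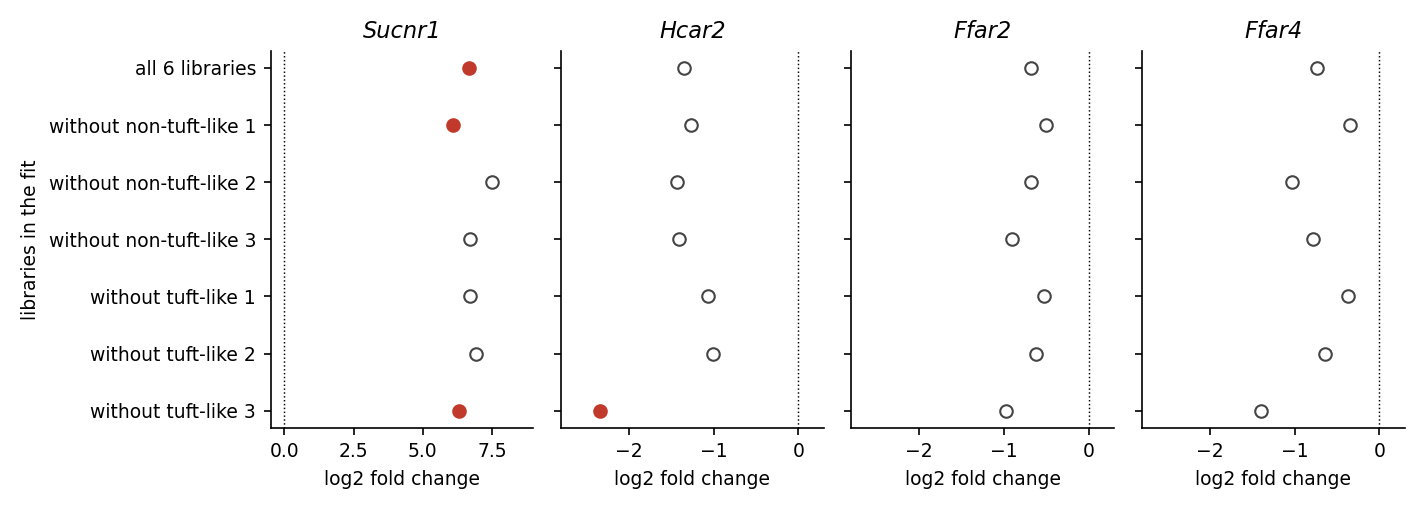
Log2 fold change (horizontal axes, which differ between Sucnr1 and the other panels) of 4 receptors with all 6 libraries and with each left out in turn; filled red points have an edgeR adjusted p under 0.05. Sucnr1 stays between 6.11 and 7.51 and is called in 2 of the 6 reduced fits, and Hcar2 is called without tuft-like library 3, at -2.34.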

How the data were processed

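RNA of 3 tuft-like and 3 non-tuft-like libraries was extracted with a Qiagen kit and made into libraries by the authors with a SMARTer ultra-low input kit. Per the submitters' processing notes, Trimmomatic 0.36, STAR 2.7.3a and HTSeq were used on mm10, and the authors deposited raw read counts per gene. The annotation release and strand setting are not given in the sources used here. Identifiers were matched to GENCODE M21, which named 99.72% of the 52636 gene rows. Left out were 92 ERCC rows, all at 0, and 5 rows of reads assigned to no gene (27.1% to 66.6% of reads).

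Groups came from the sample titles. Counts were tested with edgeR 4.0.16 in R 4.3.3 (filterByExpr with minimum count 10 and minimum total 15, TMM, quasi-likelihood F-test, Benjamini-Hochberg over 32496 genes, threshold 0.05), on all 6 libraries with no covariate. Standard errors are the absolute log2 fold change over the square root of F. Single genes were also compared by an exact permutation test. The tests were checked on simulated counts, where DESeq2 made many more false calls than edgeR. The share of false calls by edgeR was itself somewhat above its threshold of 0.05. These counts were drawn with edgeR's own dispersion estimates, which may favour edgeR. Zero reads allow up to 0.0639 to 0.124 CPM, taking 3 reads as the limit, for counting error only. Alternatives were RLE factors, library size only, DESeq2 1.42.0, limma voom 3.58.1, other filters, a replicate block, each library left out and an FDR of 0.01. Removing the mean olfactory receptor level from every gene was added after seeing the data, as was the search for shared 50-base stretches.

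The receptors and gene lists were chosen with earlier results of these data known. Named are all 9 receptors, the called genes of each list or up to 3 of its most abundant, and the 3 genes most like a called receptor with a mean of at least 1 CPM. Pou2f3, Cd36, Itpr3, Vmn2r25 and some myeloid genes were named after their values were seen. Thymocyte markers summed to 14.9 to 29.3 CPM in non-tuft-like and 6.24 to 29.0 CPM in tuft-like libraries, with 0 of 5 tested called by edgeR and 0 at an unadjusted p under 0.05. Protein identities were not analysed here.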

Additional observations from a re-analysis of the deposited data

How the results depend on the processing

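Sucnr1 kept its direction in all 15 alternatives and its call in 10. With a single library left out, its log2 fold change ranged from 6.11 to 7.51, and the number of receptors called from 0 to 2. At an FDR of 0.01, Sucnr1 (6.68) was not called, the receptors called fell to 0 and the genes called to 319. With the olfactory background removed, its log2 fold change was 11.65, a value that depends on the prior count because the non-tuft-like reads go to about 0. Genes called numbered 687, against 1045 with library size only, 1902 with DESeq2 (which made many more false calls than edgeR on simulated counts), 1127 with every gene kept, 1057 with the background removed, and 376 to 922 with a library left out. Same-numbered libraries of the 2 groups shared little deviation from their group means (correlations 0.12, 0.01 and -0.04 over 11593 genes). Deviations from means of 3 libraries cannot settle whether same-numbered libraries came from the same mice. A fit with a replicate block called 737 genes and gave Sucnr1 7.13 (edgeR adjusted p = 0.0470). Hcar2 was called in 1 alternative, without tuft-like library 3 (-2.34). Gpbar1 turned from 0.02 to -0.77 with limma voom and -0.030 with every gene kept, and ranged from -0.74 to 1.15 with a library left out; the cause was not tested. Ffar1, Ffar2, Ffar3 and Ffar4 kept their direction and were called in no alternative that gave an adjusted p. Hcar1 and Vmn2r26 had a value only with every gene kept or with some libraries left out, and were not called. The reads of Ffar1, Ffar3, Hcar1, Gpbar1 and Vmn2r26 varied too much between libraries for a direction, and their zeros did not follow depth: 4 of these were at 0 in tuft-like library 3, with 45928255 reads on genes.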
